A study of Mus musculus with 3 samples.

Results

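Gene levels within the unmodified culture of the series were described: 1 RNA-seq library of wild type (WT) E14tg2a cells, out of 3 libraries in the series. E14tg2a is a male mouse embryonic stem cell (ESC) line. The WT cells carried no knockout and no transgene and grew on gelatin-coated plates in serum medium with LIF (leukaemia inhibitory factor), the cytokine used to hold mouse ESCs in self-renewal. The rest of the series, a Zmym2 knockout clone and Zmym2 overexpressing cells, was not used. Every gene of the deposited table was taken, 39179 of 39179, from the values headed WT alone. A small second table exchanges the WT and KO headings, and the heading of the gene table, which matches the sample title, was followed. These amounted to 50120551 reads, with 1 read worth 0.945 normalised counts. Since there was 1 library, there was no replicate check and no test, and the 95% intervals given are exact Poisson intervals that cover counting error only.

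Mouse ESCs are derived from the inner cell mass of the blastocyst. Their undifferentiated state rests on the transcription factors OCT4 (encoded by Pou5f1), SOX2 and NANOG, together with factors of the naive state such as ESRRB, KLF4 and REX1 (encoded by Zfp42). Genes of the embryonic lineages are not needed in this state, and many of them carry repressive Polycomb marks in ESCs.

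Levels of different genes were compared only per length, as TPM, a relative abundance corrected for length: reads per kilobase of merged exons in GENCODE M21 (GRCm38), divided by their total over the 37693 genes with a length (96.2% of genes, 99.7% of reads). With nuclear protein-coding genes alone as the sum, every TPM value would be 1.52 times as high, and ratios between genes the same. At least 1 read was counted for 21009 of the 39179 genes (53.6%), and at least 100 reads for 11541. With 0 reads counted, up to 3 reads (2.83 normalised counts) remain possible. For a protein-coding gene of median length (3463 bases) 3 reads correspond to 0.054 TPM, so a gene at 0 reads was not detectable at this depth and need not be silent.

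All 4 markers of ESC identity were among the most abundant messages. Pou5f1 was at 1086 TPM (interval 1075 to 1097), from 39130 reads, and held rank 49 among the 21919 protein-coding genes with a length. Zfp42, which encodes the zinc finger protein REX1, was at 775 TPM (765 to 785), at rank 83. Sox2 was at 584 TPM (575 to 592), at rank 127, and Nanog at 518 TPM (510 to 525), at rank 149. With the length of the longest transcript the ranks were 41 for Pou5f1, 125 for Zfp42, 205 for Sox2 and 243 for Nanog, in the same order. Neighbours in this order differed by more than their counting intervals, but the spread between cultures was not measured. Against this, the median protein-coding gene was at 1.89 TPM, and 1485 protein-coding genes (6.77%) reached 100 TPM.

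The promoters of these 4 genes are shown because OCT4 and SOX2 bind DNA through known motifs, an octamer and, beside it, a SOX element. The string searched, TTTGCAT, is shorter than the full octamer and is called the octamer here. A match therefore need not hold the full octamer. The sequences are RefSeq windows of GRCm38.p6, from 250 bases before to 50 bases after the annotated start, read in the direction of transcription. Capitals mark TTTGCAT or its reverse complement ATGCAAA. The windows are chr17:35505782-35506081 (plus strand) for Pou5f1, chr6:122707239-122707538 (plus strand) for Nanog, chr3:34649745-34650044 (plus strand) for Sox2 and chr8:43306960-43307259 (minus strand) for Zfp42.
Pou5f1: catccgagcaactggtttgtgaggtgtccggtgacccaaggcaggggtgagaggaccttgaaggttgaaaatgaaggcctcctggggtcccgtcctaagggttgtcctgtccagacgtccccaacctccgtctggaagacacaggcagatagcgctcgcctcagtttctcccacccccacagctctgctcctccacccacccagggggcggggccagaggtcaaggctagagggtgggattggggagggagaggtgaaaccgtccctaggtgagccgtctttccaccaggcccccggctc
Nanog: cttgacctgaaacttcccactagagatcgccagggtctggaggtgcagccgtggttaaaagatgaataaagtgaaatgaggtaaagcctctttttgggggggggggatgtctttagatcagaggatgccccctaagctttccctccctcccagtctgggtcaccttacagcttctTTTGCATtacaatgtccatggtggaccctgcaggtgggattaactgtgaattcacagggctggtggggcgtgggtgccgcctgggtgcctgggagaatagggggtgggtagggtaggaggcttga
Sox2: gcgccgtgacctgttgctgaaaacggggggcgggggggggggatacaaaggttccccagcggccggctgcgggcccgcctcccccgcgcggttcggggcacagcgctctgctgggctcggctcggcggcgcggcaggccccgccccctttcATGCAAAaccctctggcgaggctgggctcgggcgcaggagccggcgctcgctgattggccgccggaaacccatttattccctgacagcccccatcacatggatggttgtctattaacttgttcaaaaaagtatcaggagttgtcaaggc
Zfp42: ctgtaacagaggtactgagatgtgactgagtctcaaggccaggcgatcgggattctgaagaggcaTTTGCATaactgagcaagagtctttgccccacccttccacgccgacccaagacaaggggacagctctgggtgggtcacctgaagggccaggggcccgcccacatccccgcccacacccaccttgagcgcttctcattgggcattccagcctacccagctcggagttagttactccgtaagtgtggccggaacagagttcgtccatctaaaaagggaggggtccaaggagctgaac
In Nanog the octamer begins 75 bases before the start and is followed by a SOX element. The match below, chr6:122707406-122707435, has in capitals the octamer, 1 further base and the SOX element ACAATG.
Nanog octamer and SOX element: cagcttctTTTGCATTACAATGtccatggt
The octamer lies 99 bases before the start of Sox2, on the other strand, and 185 bases before that of Zfp42, and no match was found in the Pou5f1 window. On either strand, TTTGCAT was present in 677 of 16692 windows of protein-coding genes (4.06%). Of the 26 pluripotency genes with a window, only the 3 markers Nanog, Sox2 and Zfp42 had a match. The octamer followed after 1 base by ACAATG, also on either strand, was present in 1 window, that of Nanog. A match describes the letters and does not show binding. The windows held 11 CpG dinucleotides in Pou5f1, 4 in Nanog, 27 in Sox2 and 11 in Zfp42. Windows were matched to 76.2% of 21902 protein-coding symbols and to 26 of 44 pluripotency genes. This is below a minimum of 80%, so a comparison of promoter CpG content across levels or gene classes is void for these data and is not read.

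The wider set of pluripotency genes, which includes the markers above, was mostly high as well. Of 44 genes in 3 lists (core factors, naive factors, and markers of the inner cell mass and ESCs), 44 were at 10 TPM or more and 33 at 100 TPM or more. Of all protein-coding genes, 28.4% lay from 10 to 100 TPM and 6.77% at 100 TPM or more. The median of the 44 genes was 174 TPM and their range 18.4 to 1964 TPM. The lists hold genes known as marks of ESCs, so a high level is what they were chosen for.

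Among the core factors, Utf1, a chromatin-associated factor, was just above Pou5f1 at 1157 TPM (1142 to 1172). Lin28a, an RNA-binding protein that blocks let-7 maturation, was at 494 TPM and Sall4, a zinc finger factor, at 382 TPM. Esrrb, an orphan nuclear receptor, was at 310 TPM and Mycn at 282 TPM. Zfp281 and Zfp462, both zinc finger genes, closed the list at 121 and 90.5 TPM.

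The naive factors spanned a wider range. After Zfp42 came Zscan10 at 299 TPM, Klf2 at 293 TPM and Nr0b1, which encodes the nuclear receptor DAX1, at 220 TPM. Klf5 was at 148 TPM, Klf4 at 140 TPM, Gbx2 at 129 TPM and Tfcp2l1 at 93.2 TPM. Low in the list were Nr5a2 at 50.3 TPM, Tbx3 at 22.4 TPM and Prdm14 at 18.4 TPM (17.1 to 19.8). Prdm14, a regulator of naive pluripotency and of germ cell fate, was thus the lowest of the 44 genes and still above 1 TPM by a wide margin.

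Of the inner cell mass and ESC markers, Dppa5a, which encodes a small RNA-binding protein, was the most abundant of the 44 pluripotency genes at 1964 TPM (1936 to 1991), rank 26 among protein-coding genes. L1td1, an RNA-binding protein derived from a LINE element, was at 901 TPM, Tdgf1, a co-receptor of Nodal, at 647 TPM, and Cdh1, the gene of E-cadherin, at 572 TPM. Slc2a3, a glucose transporter, was at 396 TPM and Spp1 at 364 TPM. Tcl1 (71.9 TPM), Dppa3 (59.6 TPM), Morc1 (41.6 TPM) and Pecam1 (29.4 TPM) were the 4 lowest. Zmym2, the gene the series is about, was at 66.8 TPM (65.4 to 68.3), rank 2270, beside its paralogues Zmym4 at 60.1 TPM and Zmym3 at 40.1 TPM.

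**Figure D1:**
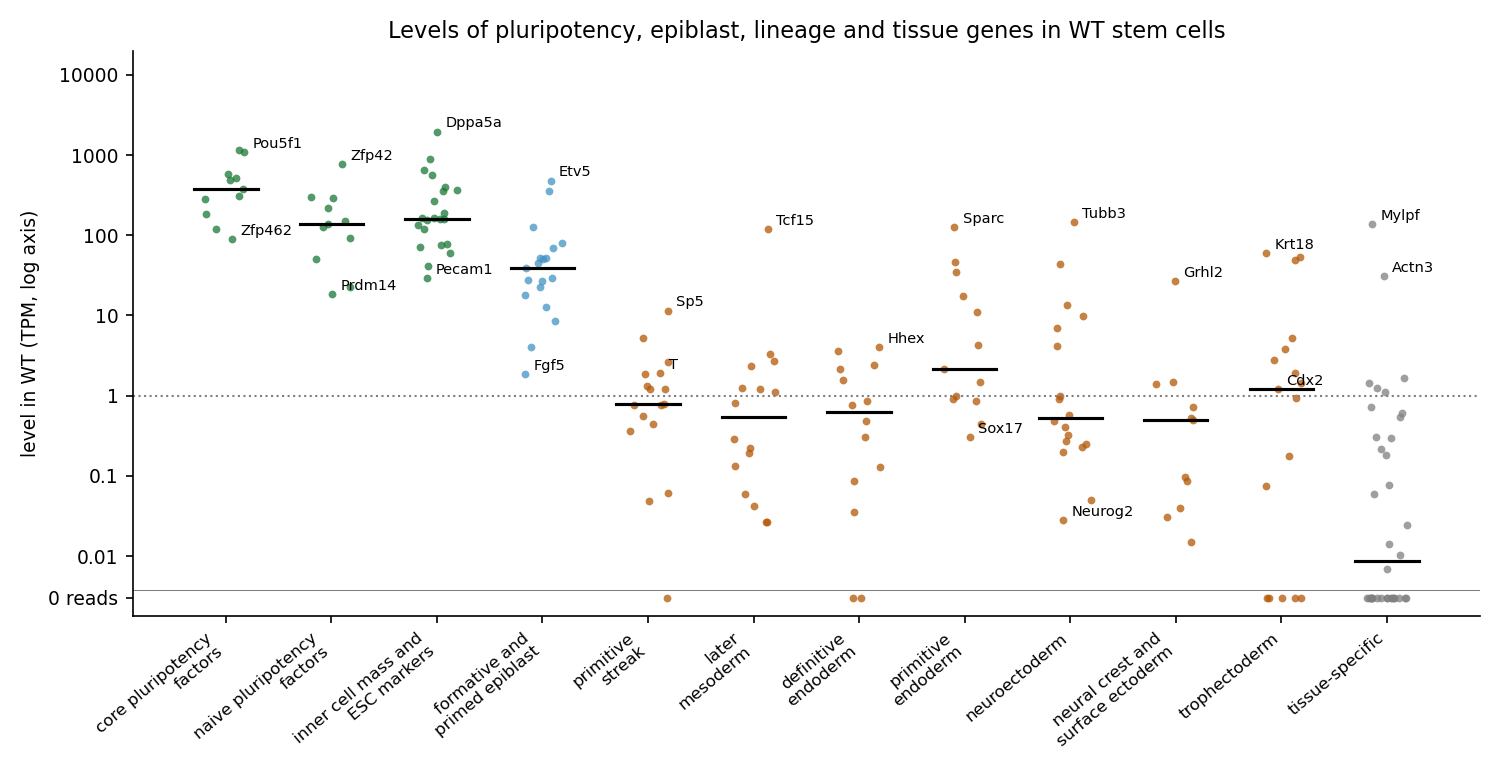
Level of each gene (TPM, log axis) in the WT library for 12 gene lists. Each point is 1 gene, the black bar is the list median, the dotted line is 1 TPM, and genes with 0 reads are drawn on the lowest level. Pluripotency lists (green) lie at 18.4 TPM and above, the epiblast list (blue) between 1.87 and 480 TPM, and most genes of the lineage (orange) and tissue-specific (grey) lists lie below 10 TPM.

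Genes of the formative and primed epiblast, the later states through which ESCs pass as they leave naive pluripotency, lay between the pluripotency and the lineage genes. All 19 were at 1 TPM or more, against 54.2% of protein-coding genes, with a median of 38.8 TPM. Etv5, an ETS factor downstream of FGF signalling, was at 480 TPM, the de novo methyltransferase gene Dnmt3b at 352 TPM and Etv4 at 127 TPM. Cldn6 (81.0 TPM), Nodal (69.2 TPM) and Foxd3 (52.7 TPM) followed. Otx2, a factor of the formative state, was at 27.7 TPM and Pou3f1 (Oct6) at 22.7 TPM. Fgf5, the usual mark of the primed epiblast, had 75 reads and was the lowest at 1.87 TPM (1.47 to 2.34).

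The early lineage genes, 101 genes in 7 lists, had a median of 0.80 TPM, so that the median of the pluripotency genes was 218 times as high. Under 1 TPM lay 57 of the 101, where 45.8% of all protein-coding genes lay. At 0 reads were 8 of the 101 (7.92%), a smaller share than the 25.5% of all protein-coding genes. Both classes overlapped in part: 28 pluripotency genes were above Tubb3, the highest lineage gene, 10 lineage genes were above Prdm14, the lowest pluripotency gene, and 0 lineage genes reached the pluripotency median. At 100 TPM or more were 3 lineage genes: Tubb3 (147 TPM), Sparc (125 TPM) and Tcf15 (120 TPM).

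In the primitive streak list, 9 of 17 genes were under 1 TPM, a share near the 45.8% of all protein-coding genes, and the median was 0.79 TPM. Sp5, a direct target of WNT signalling, was highest at 11.5 TPM, followed by the T-box gene Eomes at 5.18 TPM. T, the gene of Brachyury, had 71 reads and 1.91 TPM (1.49 to 2.41). Mesp1 had 1 read and Msgn1, a gene of presomitic mesoderm, had 0 reads, which allows up to 0.31 TPM. In the later mesoderm list, Tcf15 stood apart at 120 TPM (114 to 125), with Etv2 next at 3.33 TPM. The regulators of muscle Myog and of heart and limb Hand2 and Tbx5 had 1 or 2 reads each.

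Endoderm genes were split by kind. Genes of the basement membrane that parietal endoderm secretes were present: Sparc at 125 TPM, the laminin genes Lamb1 at 47.0 TPM and Lama1 at 35.3 TPM, and the collagen IV genes Col4a1 at 17.6 TPM and Col4a2 at 11.02 TPM. The transcription factors that define primitive endoderm were much lower: Gata4 at 2.13 TPM, Sox7 at 1.47 TPM, Gata6 at 0.86 TPM and Sox17 at 0.30 TPM. Pdgfra, a receptor used to sort primitive endoderm, was at 0.44 TPM. In the definitive endoderm list the highest was Hhex at 4.02 TPM, Cer1 had 1 read, and the liver and yolk sac genes Afp and Ttr had 0 reads.

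The ectoderm and trophectoderm lists also spread widely, with transcription factors among both their higher and their lower genes. Tubb3, a neuronal beta-tubulin, was at 147 TPM, Neurod1 at 43.3 TPM, Nes at 13.6 TPM and Pax6 at 9.75 TPM (20.8 TPM with the length of its longest transcript). But 12 of the 18 neuroectoderm genes were under 1 TPM, against 45.8% of all protein-coding genes, and the proneural gene Neurog2 had 1 read. Grhl2, an epithelial factor, was at 26.8 TPM, while the neural crest and epidermal genes Pax3, Tfap2b and Trp63 had 2 to 4 reads. The keratin genes Krt18 and Krt8, which pair in simple epithelia, were at 59.3 and 49.6 TPM, and Tfap2c, which ESCs, germ cells and trophoblast share, at 53.1 TPM. Against these, the trophectoderm factors Cdx2 (44 reads, 1.21 TPM) and Elf5 (7 reads, 0.074 TPM) were low, and Tpbpa, Prl3d1, Psg17, Rhox6 and Rhox9 had 0 reads. In bulk RNA, a low level in all cells and a higher level in a few cells cannot be told apart.

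**Figure D2:**
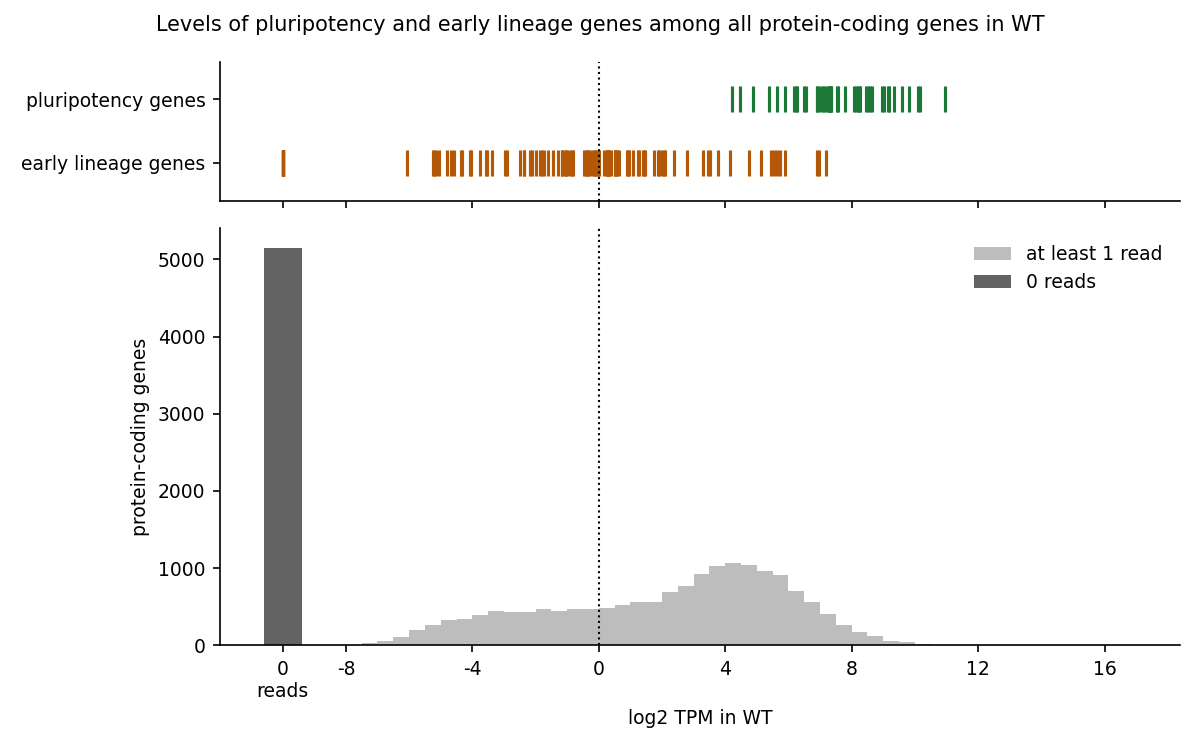
Histogram of log2 TPM for the 21919 protein-coding genes with a length in WT, with the 5147 genes at 0 reads as a bar of their own. Ticks above mark the 44 pluripotency genes (upper row) and the 101 early lineage genes (lower row), and the dotted line is 1 TPM. The pluripotency ticks run from 18.4 to 1964 TPM, where the upper quartile of the 21919 genes is 21.4 TPM. The lineage ticks spread over the whole range below a log2 TPM of 8.

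Markers of other cells that the culture could hold spread over a wide range. Of 15 fibroblast genes, 8 were under 1 TPM, a share near the 45.8% of all protein-coding genes. Fn1 (fibronectin) at 302 TPM and Vim (vimentin) at 110 TPM were high, Tagln was at 30.8 TPM, Acta2 at 21.4 TPM, Col1a1 at 6.78 TPM and Thy1 at 4.21 TPM. The stromal genes Dcn, Prrx1 and Postn had 6, 11 and 3 reads, and Lum had 0. The 9 genes of the two-cell-like state, which a small fraction of cultured ESCs passes through, included 7 at 1 TPM or more (77.8%, against 54.2% of protein-coding genes) and ranged from 0.16 TPM (Tcstv3) to 6.40 TPM (Zscan4f). Reads of the near-identical Zscan4 copies may be split in counting, so single members are uncertain. Of 15 germ cell genes, 9 were at 1 TPM or more (60.0%). Among them, Sycp3 (27.1 TPM), Ddx4 (20.7 TPM), Zp3 (20.2 TPM), Mael (18.3 TPM) and Prdm1 (13.5 TPM) were above 10 TPM, while the sperm chromatin genes Prm1, Prm2 and Tnp1 had 0 reads.

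Genes of differentiated tissues gave the floor of the library. Of 36 tissue-specific genes, 17 had 0 reads (47.2%, against 25.5% of all protein-coding genes), among them Alb (albumin), Ins1 and Ins2 (insulin), the beta-globin genes Hbb-bs and Hbb-bt, and Csn2 (casein). Under 1 TPM lay 30 of the 36, against 45.8% of all protein-coding genes. The exceptions above 10 TPM were both genes of fast skeletal muscle: Mylpf, a myosin light chain, at 138 TPM (133 to 144, 2350 reads) and Actn3, an alpha-actinin, at 31.2 TPM (1453 reads). Mylpf lies on chromosome 7 from 127208890 to 127214298. The gene next to it, Sept1, lies on the opposite strand and was at 132 TPM, and Mylpf shared 0% of its exonic bases with another gene. Titin (Ttn) had 1340 reads, but with its great length these gave 0.72 TPM.

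Sensory receptor families were nearly empty. Of 1106 olfactory receptor genes, 1054 had 0 reads (95.3%, against 25.5% of all protein-coding genes). Of the 1027 with a length, 1 reached 1 TPM, Olfr985 at 6.64 TPM (200 reads). Of 323 vomeronasal receptor genes, 306 had 0 reads, and the highest was Vmn2r55 at 4.78 TPM. Of 38 taste receptor genes, 33 had 0 reads, with Tas1r1 at 2.005 TPM. Hox genes, which pattern the body axis and are Polycomb targets in ESCs, were low but rarely at 0. Of these, 34 of 38 were under 1 TPM, against 45.8% of all protein-coding genes. Their median was 0.17 TPM, and only Hoxa6 had 0 reads. Hoxd13 was at 3.19 TPM.

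Within families of transcription factors, 1 or a few members carried most of the level. Sox2 at 584 TPM stood above Sox12 at 80.9 TPM, Sox13 at 45.4 TPM, Sox4 at 44.8 TPM and Sox15 at 40.6 TPM. Pou5f1 at 1086 TPM stood above Pou2f1, the broadly expressed Oct1, at 32.6 TPM. Under 1 TPM lay 8 of the 19 Sox genes and 6 of the 15 Pou genes, shares close to the 45.8% of all protein-coding genes. The Klf family was more even: Klf2 at 293 TPM was followed by Klf5, Klf9 and Klf4 at 148, 142 and 140 TPM. At 10 TPM or more were 12 of 17 members. Of all protein-coding genes, 28.4% lay from 10 to 100 TPM and 6.77% at 100 TPM or more. No Gata gene exceeded 2.77 TPM (Gata2), and of the 9 Pax genes only Pax6 and Pax8 (2.74 TPM) were above 1 TPM.

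**Figure D3:**
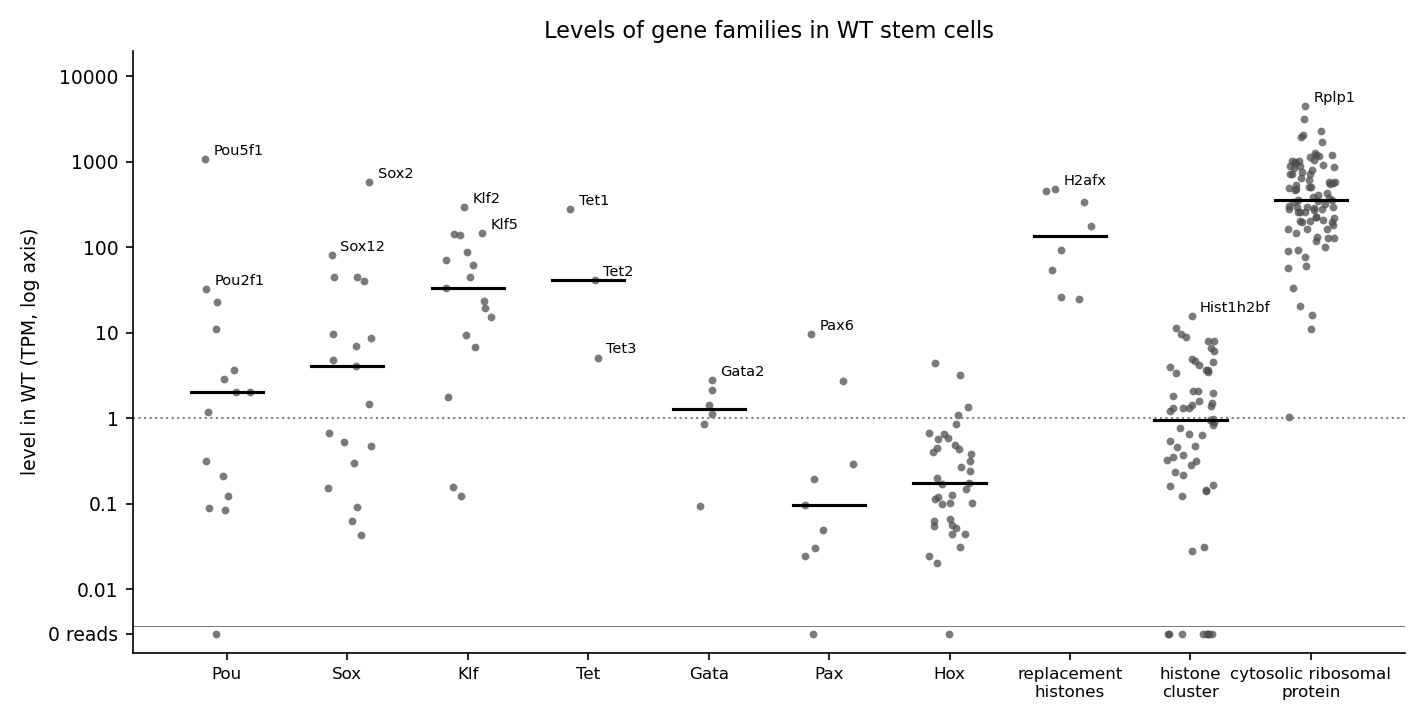
Level of each member (TPM, log axis) of 10 gene families in the WT library. Each point is 1 gene, the black bar is the family median and the dotted line is 1 TPM. Pou5f1 and Sox2 stand apart from their paralogues, while the Klf and ribosomal protein genes form continuous ranges.

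The receptors and targets of LIF were present in the culture. Of the 16 LIF and STAT3 genes, 14 were at 1 TPM or more, against 54.2% of protein-coding genes. The receptor chains Lifr and Il6st (gp130) were at 43.1 and 36.4 TPM and Stat3 at 45.2 TPM, and Socs3 and Pim1, known STAT3 targets, at 147 and 134 TPM. Il6ra, the receptor chain for interleukin-6, was at 0.35 TPM, and Il6 had 0 reads. In the FGF and ERK list, 21 of 22 genes were at 1 TPM or more. The ligand gene Fgf4 was at 136 TPM, and the kinase gene Mapk3 (ERK1) at 234 TPM. Fgfr1 was at 44.0 TPM, Fgfr2 at 12.02 TPM, Fgfr4 at 1.81 TPM and Fgfr3 at 0.44 TPM. With the length of the longest transcript, Fgfr1 was at 69.5 TPM and Fgfr2 at 22.6 TPM, in the same order. The feedback inhibitors Spry2 and Spry4 were at 224 and 169 TPM. In the WNT list, Ctnnb1 (beta-catenin) was at 429 TPM and Tcf7l1, its repressive partner in ESCs, at 187 TPM, while the ligand genes Wnt3 and Wnt3a were at 1.22 and 0.79 TPM and the inhibitor gene Dkk1 at 0.33 TPM.

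Genes of DNA methylation and chromatin were abundant. Dnmt3l, the cofactor of the de novo methyltransferases, was at 382 TPM, above Dnmt3b at 352 TPM, the maintenance enzyme Dnmt1 at 225 TPM and Dnmt3a at 51.8 TPM. Of the Tet dioxygenases, Tet1 was at 281 TPM, Tet2 at 41.3 TPM and Tet3 at 5.12 TPM. Trim28, the co-repressor of KRAB zinc finger proteins, reached 1846 TPM and was the highest of 25 chromatin genes. Chd4 was at 394 TPM, and Smarca4, the ATPase of the ESC form of the BAF complex, at 230 TPM against 0.31 TPM for Smarca2. The Polycomb genes Jarid2, Suz12, Eed and Ezh2 were at 298, 165, 149 and 106 TPM, and Ezh1, the paralogue of Ezh2, at 16.96 TPM. With the length of the longest transcript in place of merged exons, Ezh2 was at 205 TPM and Smarca2 at 0.61 TPM.

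Of 27 cell cycle genes, 26 were at 1 TPM or more, against 54.2% of protein-coding genes. Trp53 was at 504 TPM, Ccne1 (cyclin E1) at 465 TPM, Cdk4 at 451 TPM and Ccna2 at 287 TPM. Lowest in the list were Cdk6 at 8.45 TPM, the inhibitor gene Cdkn2b at 3.81 TPM, the pocket protein gene Rbl2 at 3.54 TPM and the inhibitor gene Cdkn2c at 0.95 TPM.

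For most steps of glycolysis 1 isoform stood above the others, in a list chosen after values had been seen. Pkm (pyruvate kinase) was at 2268 TPM, against 1.35 TPM for Pklr, its isoform of liver and red cells. Aldoa was at 1278 TPM and Aldoc at 11.4 TPM. Hk2 (hexokinase) was at 208 TPM and Hk1 at 14.4 TPM. Ldha was at 1013 TPM and Ldhb at 281 TPM, while the testis isoforms Ldhc, Pgk2 and Gapdhs had 36, 0 and 0 reads. The glucose transporters Slc2a1 and Slc2a3 were at 711 and 396 TPM, and Slc2a2 and Slc2a4, of liver and of muscle and fat, at 0 reads and 2.26 TPM. With the length of the longest transcript Pkm was at 3766 TPM, Aldoa at 1939 TPM and Hk1 at 23.2 TPM.

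Hprt was the exception among 22 housekeeping genes. It had 13 reads and 0.63 TPM (0.33 to 1.08), while the other 21 were at 10 TPM or more, from Gusb at 15.7 TPM to Eef1a1 at 9629 TPM. Hprt lies on the X chromosome from 52988137 to 53021659 and encodes the enzyme that salvages hypoxanthine and guanine. E14tg2a is known as an HPRT-deficient line, selected for growth in 6-thioguanine. Among the other purine genes, the salvage enzyme genes Pnp and Aprt were at 398 and 261 TPM. Impdh2 and Ppat, of de novo synthesis, were at 185 and 167 TPM. The identifier of Pnp is named Gm49342 in GENCODE M21, with a merged length of 750 bases, so its TPM is uncertain. By reads Pnp was below Aprt, at 4782 against 6755.

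Genes of the Y chromosome were unevenly present. Eif2s3y was at 41.8 TPM (40.3 to 43.4), Ddx3y at 26.1 TPM and Uty at 11.95 TPM. Usp9y and Kdm5d, other genes of the mouse Y, had 14 and 8 reads (0.11 and 0.033 TPM), and Sry, the testis-determining gene, had 0. Their X partners Usp9x and Kdm5c were at 160 and 125 TPM. Xist, which coats the inactive X in female cells, had 40 reads (0.14 TPM), and its antisense partner Tsix was at 10.1 TPM. Counting used strand, so the reads of this pair could be told apart. Of the protein-coding genes at 1 TPM or more, those on the X had a median within the range of the single autosomes, 14.3 to 26.3 TPM, and below the median over all autosomes, 18.6 TPM.

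The whole library was spread over many genes. The 10 genes with most reads held 10.2% of reads, the top 100 held 23.8% and the top 1000 held 55.6%, and 50% of reads came from 752 genes. Among nuclear protein-coding genes alone, the top 100 held 15.9%. Of the protein-coding genes with a length, 4885 were under 1 TPM but had reads, 4183 were from 1 to 10 TPM, 6219 from 10 to 100 TPM, 1428 from 100 to 1000 TPM and 57 at 1000 TPM or more. In all 11887 of 21919 (54.2%) were at 1 TPM or more.

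**Figure D4:**
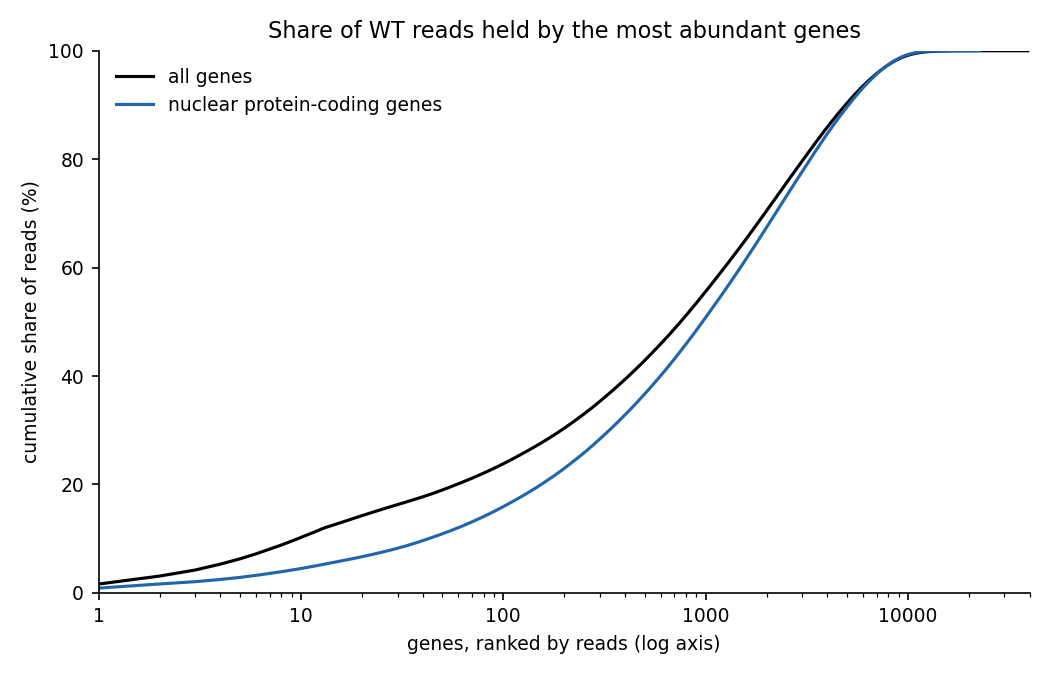
Cumulative share of WT reads (%) against genes ranked by reads (log axis), for nuclear protein-coding genes (blue) and for all genes (black). The top 100 genes hold 15.9% of reads among nuclear protein-coding genes and 23.8% among all genes.

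Mitochondrially encoded genes took 9.86% of reads and the 9 highest places by TPM among protein-coding genes. mt-Atp6 was at 67353 TPM, mt-Nd1 at 35567 TPM and mt-Co1, with the most reads of any gene (813695), at 32854 TPM. mt-Nd4l had 0 reads, although mt-Nd4, from the same transcript, was at 25424 TPM. Below them came genes of translation and folding: Eef1a1 (elongation factor) at 9629 TPM (9599 to 9660), Hsp90ab1 (chaperone) at 7035 TPM, Rplp1 at 4512 TPM, the nucleolar gene Npm1 at 3958 TPM and Actb at 3839 TPM. Of the 100 nuclear protein-coding genes with the highest TPM, 26 were cytosolic ribosomal protein genes and 0 were early lineage genes. Pluripotency genes were 6 of the 100 (Dppa5a, Utf1, Pou5f1, L1td1, Zfp42 and Tdgf1). The 100 come from the nuclear ones among the 21919 protein-coding genes with a length. At that share, few or none of 101 genes would be among them, so the 0 is no result about lineage genes. The 86 ribosomal protein genes held 2.71% of reads with a median of 357 TPM, and were as low as 1.03 TPM for Rpl3l, a form of striated muscle. Ribosomal protein genes have many near-identical processed copies, so single values are uncertain.

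Histone genes divided by kind, in lists chosen after values had been seen. The 68 genes of the replication-dependent histone clusters, whose mRNAs end in a stem-loop and carry no poly(A) tail, held 1815 reads in all (0.00362%), and their highest was Hist1h2bf at 15.6 TPM. The 8 replacement histone genes, with polyadenylated mRNAs, had a median of 136 TPM, among them H2afx at 486 TPM, H2afz at 454 TPM and H3f3b at 340 TPM. The library was made by depletion of ribosomal RNA, and why the cluster genes had few reads was not tested.

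Beyond protein-coding genes, which held 97.2% of reads, the noncoding biotypes were small and uneven. LincRNA genes held 1.23% of reads, and 79.1% of this came from 1 locus, Gm26924 (named Gm42418 in GENCODE M21), with 488983 reads on chromosome 17 from 39846958 to 39848788. Gm26917, the most abundant gene of the processed transcript biotype (29372 reads), ends beside it, at 39846341. The biotypes are those deposited, and whether the reads at these neighbouring loci come from RNAs of the labelled kind was not tested. The next lincRNAs were Gm2373 (Lncenc1 in GENCODE M21) at 340 TPM and Malat1 at 153 TPM. Of other known noncoding RNAs, H19 was at 115 TPM and Meg3 at 40.9 TPM, while Airn had 8 reads and Dnm3os 0. In a pair of pseudogenes on chromosome 5, Gm17131 and Gm17132 were at 679 and 1253 TPM. Pseudogenes held 0.394% of reads and were detected in 28.9% of 5945 cases, against 53.6% of all genes.

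Small RNA genes were rarely detected. At least 1 read was counted for 61 of 1387 snRNA genes (4.40%), 180 of 2010 miRNA genes (8.96%) and 196 of 1556 snoRNA genes (12.6%). The share over all 39179 genes was 53.6%. Rn7sk, the 7SK RNA, had 851 reads and 160 TPM, but Rpph1 and Rmrp, the RNAs of RNase P and RNase MRP, had 43 and 39 reads, and the telomerase RNA Terc had 5. Rpph1 shared 73.0% of its exonic bases with another gene on the same strand, so its count is uncertain. Within the miRNA biotype, 59.1% of reads came from Gm23935 (2780 reads). How far the library preparation kept RNAs of this length was not tested.

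**Figure D5:**
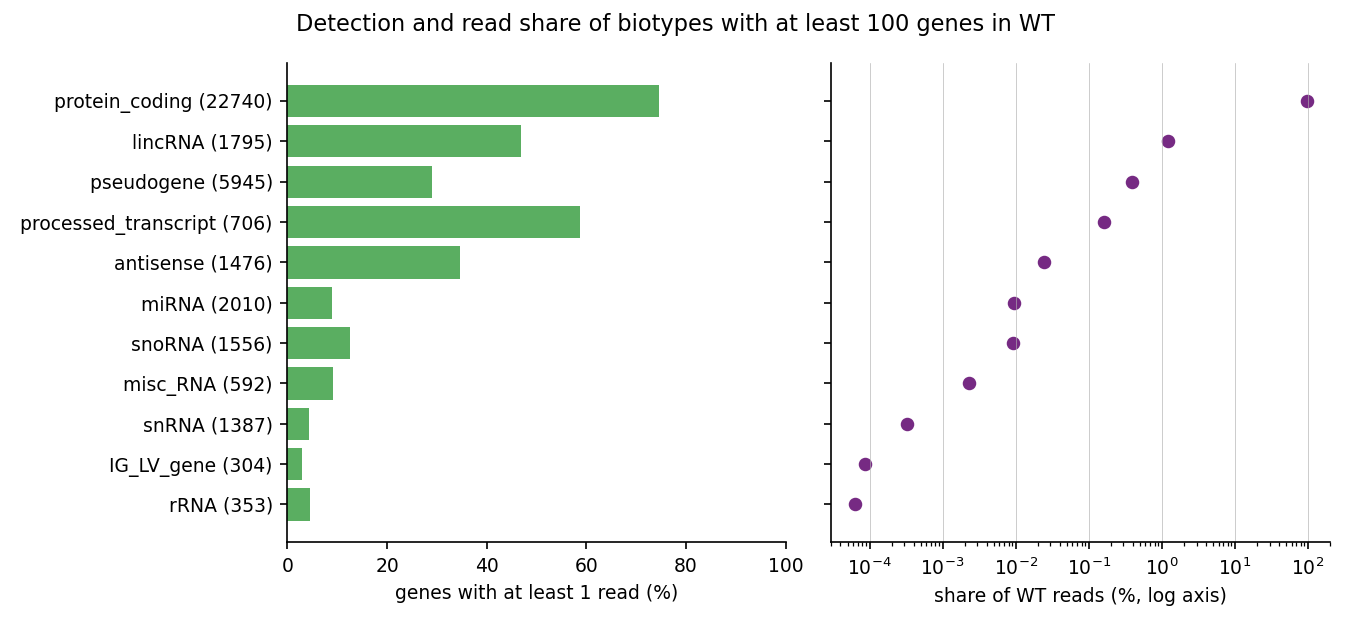
For the 11 biotypes with at least 100 genes (number of genes in parentheses), the share of genes with at least 1 read in WT (left, %) and the share of all WT reads (right, %, log axis). Protein-coding genes were detected in 74.5% of cases, against 53.6% of all genes, and held 97.2% of reads. Each other biotype held 1.23% or less.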

How the data were processed

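RNA was sequenced from 1 library of WT E14tg2a ESCs in Serum Plus LIF. According to the methods and the submitters' processing notes, ribosomal RNA was depleted, libraries kept strand, and reads were trimmed (TrimGalore), mapped to GRCm38/mm10 (TopHat2) and counted per gene by strand (featureCounts). Which annotation release was counted is not stated in these sources. As deposited, the signal values are counts that the authors divided by a DESeq2 size factor (1.06 for WT). A division by transcript length is also described, but 100.0% of the values were whole multiples of 1 read (tolerance 1e-06), so no length enters them. Whole reads were recovered by dividing by the value of 1 read, 0.945.

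TPM was computed here with merged exon lengths of GENCODE M21. The computation of TPM and of the intervals was checked on simulated data. Shares have exact binomial and levels exact Poisson 95% intervals, which cover counting error only, as no molecular identifiers tell PCR copies apart. No count model was fitted and no p-value computed, as there was 1 library. Symbols shared by several identifiers (176) took the identifier with a length.

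The members and gene lists were chosen with earlier results of these data known. The genes named were the 4 markers, Zmym2, Hprt and the genes of the study's qPCR probes, the 20 genes with most reads, the 20 protein-coding genes with the highest TPM, the 3 with most reads in each biotype of at least 100 genes, up to 6 highest and 4 lowest members of each list and those at 0 reads, and any member of a family. Lifr, Il6st, Fgfr1, Ezh2, Zmym3, Zmym4, Otx2, Cdx2, Elf5, Ddx3y, Uty, Tbx5, Ttn, Rmrp, Rpph1, Terc, Sept1 and the glycolysis and replacement histone genes were named after their values were seen.

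The alternatives were other read and TPM minimums, the length of the longest transcript, a nuclear protein-coding denominator and sets without mitochondrially encoded or top genes. Leaving out members that share exonic bases, or Gm26924, was chosen after seeing the data. In a small deposited table of selected genes, which also holds the authors' ratios between libraries and 1 column of levels of no sample analysed here, the WT and KO headings stand exchanged relative to the gene table. The gene table heading was followed, as it matches the sample title and as the ratios to WT in the small table divide by the same values. No further check of the label was made. The small table and a table of repeat families were not used. Some genes of the lists are counted but not named. The tools were scipy 1.17.1, pandas 2.3.3, numpy 2.4.6 and matplotlib 3.10.9 under Python 3.11.15.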

Additional observations from a re-analysis of the deposited data

How the results depend on the processing

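Detection at a minimum of 4 or 10 reads, the count of genes at 1 TPM or more, the early lineage genes under 1 TPM and the tissue-specific genes with 0 reads stayed within 1.5 times of the values given under the alternatives tried for them, while at least 100 reads were counted for 11541 genes, against 21009 with at least 1. Scaling to nuclear protein-coding genes raised all TPM values 1.52 times, so the pluripotency median became 264 TPM and the early lineage median 1.21 TPM, with ranks and ratios between genes as before. With the longest transcript as the length, of 535 named genes 36 were over 1.5 times higher and 0 were lower by as much. Of those printed, Uty was at 18.1 TPM, Sept1 at 197 TPM, Kdm5d at 0.051 TPM and Airn at 0.29 TPM. The order of the 4 markers was the same, with Pou5f1 at 1447 TPM, Zfp42 at 641 TPM, Sox2 at 471 TPM and Nanog at 424 TPM. Without members that share exonic bases on the same strand, the pluripotency median was 185 TPM. The top 100 genes held 15.9% of reads among nuclear protein-coding genes and 15.8% without mitochondrially encoded genes and Gm26924, against 23.8% of all. The protein-coding share was 98.0% without mitochondrially encoded genes and 98.8% without the 10 most abundant genes, against 97.2%. CpG-rich windows (GC of at least 50% and an observed to expected CpG ratio of at least 0.6) made up 78.2% of those at 10 TPM or more and 79.2% with classes set by normalised counts without length, a comparison that is void for lack of windows. No paired analysis was possible because there was 1 library. With 1 library, the spread between cultures, batch and passage is unknown, levels below about 3 reads cannot be told from 0, and genes with near-identical copies may be over- or undercounted.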
